A study of Mus musculus with 47 samples.

Results

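Tripartite motif (Trim) genes encode a large protein family named after a shared amino-terminal arrangement of a RING finger, B-box zinc fingers and a coiled coil. Most members that keep the RING finger are E3 ubiquitin ligases, enzymes that attach ubiquitin to chosen proteins. Many members are switched on by interferons, the secreted signals of antiviral defence. Others work in neurons, in muscle, in maturing red cells or on chromatin. Members were taken as all genes with a symbol of the form Trim, a number and at most 1 further letter, with a mean level of at least 0.1 TPM (transcript abundance scaled to transcript length and to the library total) over all libraries. Of 68 such symbols 56 passed. Just inside the limit stood Trim75 at 0.123 TPM and Trim30c at 0.147 TPM, and just outside it stood Trim54 at 0.0757 TPM, Trim69 at 0.0694 TPM and Trim38 at 0.0519 TPM.

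The data are RNA sequencing of polyadenylated RNA from dissected mouse olfactory epithelium, the nasal sheet that holds the odor-sensing neurons. There were 47 libraries: 24 from mice with the strain label OIVT;Kir2.1 (Kir) and 23 from mice with the strain label C57BL/6J (WT). The 7 ages ran from the day of birth (P0) through P3, P5 and P7 to P10, P14 and P21, in days. Kir and WT each had 4 libraries at P0 and at P7, P10 had 4 Kir and 3 WT libraries, and every other age had 3 of each genotype. Kcnj2 encodes Kir2.1, a channel that lets potassium into cells and holds neurons near rest, and the labels name no targeted Trim gene. The sources used here give neither the promoter behind the transgene nor the meaning of OIVT. Nor do they say whether WT mice were littermates of Kir mice. A difference in strain background thus cannot be told apart from the transgene in any Kir minus WT difference below. Whether libraries stand for separate animals is not stated, and the p-values thus measure only the scatter between libraries, part of which can be technical.

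Gene counts per library ran from 8107547 to 30385151. Kcnj2 averaged 543.5 ± 83.7 CPM (counts scaled to the library size; SD, n = 4) in Kir and 53.4 ± 4.34 CPM in WT (n = 4) at P0, and at every age all Kir libraries exceeded all WT libraries. It was lowest, at 132 to 238 CPM, in 5 Kir libraries, which were replicates 1 and 4 of P7, replicates 1 and 2 of P21 and replicate 3 of P3. The tissue label was checked by markers of mature sensory neurons. They summed to 6935 to 7361 CPM in Kir and 8052 to 9030 CPM in WT at P21. At P0 they summed to 808.5 to 1561 CPM in Kir and 1449 to 1935 CPM in WT. Kir P0 replicate 4 was also high in muscle and keratinocyte markers, and WT P0 replicate 1 in brain neuron markers (values below). Library titles carry a prefix (cry3, cry4 or cry6) of unstated meaning, and P7 is the single age at which each genotype held all of them. Libraries at P5 and P10 all had cry6, and those at P0, P3, P14 and P21 all had cry4. The title of WT P0 replicate 3 says P0, where its stage field says P3.

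Levels of the members were compared in TPM, which scales for transcript length. They spanned over 3 orders of size, from Trim28 at 249 TPM to Trim75 at 0.123 TPM, with a median of 9.03 TPM. A mean of at least 10 TPM was reached by 27 members, 14 lay from 1 to 10 TPM, and 15 lay below 1 TPM. Trim28, the co-repressor that works with KRAB zinc finger proteins on chromatin, was highest, followed by Trim66, another member of its chromatin subfamily, at 167 TPM. Trim35 followed at 88.6 TPM, then Trim37, known for roles at centrosomes and peroxisomes, at 71.0 TPM, and Trim3, a ligase known from neurons, at 67.2 TPM. At P21 Trim66 had 187 ± 14.3 TPM in Kir (SD, n = 3) and 196 ± 15.2 TPM in WT (n = 3), and Trim28 had 171 ± 12.7 TPM in Kir and 171 ± 13.2 TPM in WT. The means of Trim66 were above those of Trim28 at P21, but their libraries overlapped in both genotypes. Trim25, the ligase best known for tagging the viral RNA sensor RIG-I, averaged 28.5 TPM over all libraries.

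**Figure D1:**
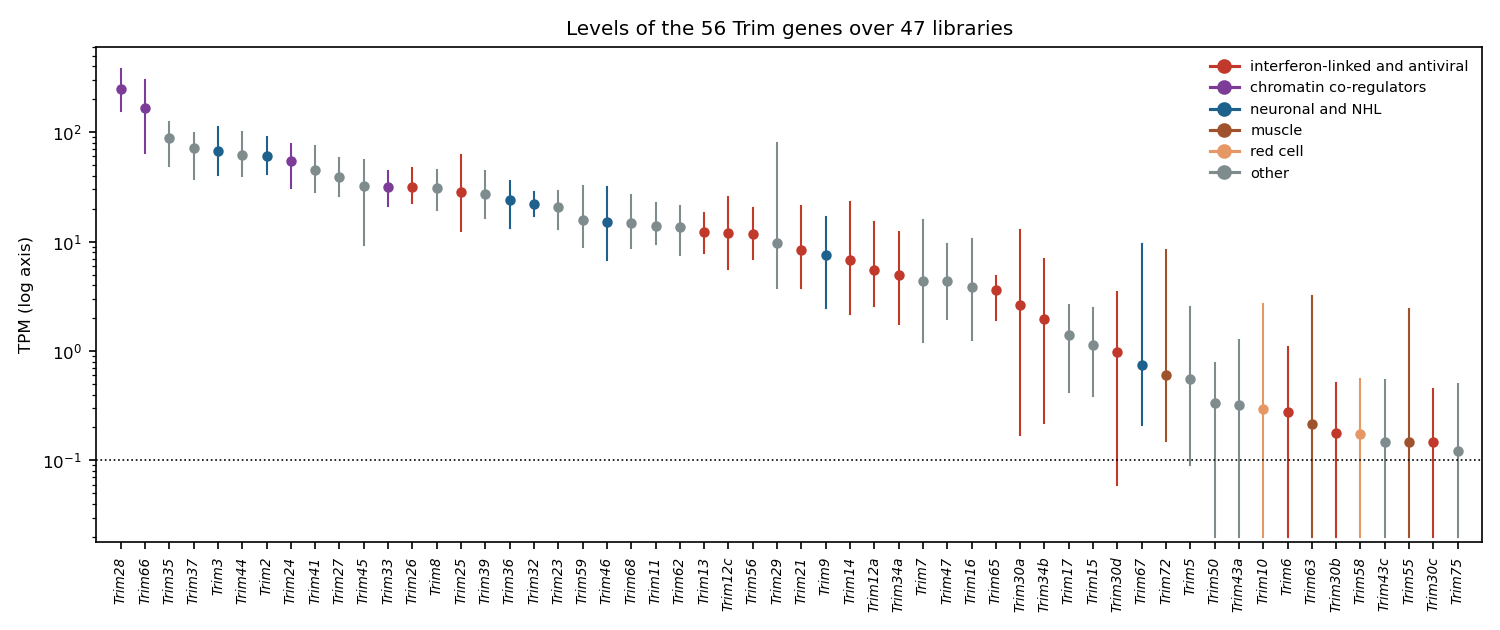
Mean TPM of each of the 56 members over 47 libraries (points, log axis), coloured by role, with lines from the lowest to the highest library (lines that reach 0 stop at the bottom of the axis). The dotted line is the 0.1 TPM limit; Trim28 (249 TPM) and Trim66 (167 TPM) stand at the left and Trim75 (0.123 TPM) at the right.

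Of the 56 members 49 had enough counts to be tested. The other 7, Trim30b, Trim30c, Trim43a, Trim43c, Trim55, Trim58 and Trim75, were not tested and had mean levels of 0.123 to 0.32 TPM. The tested members were grouped by role: 14 of 16 interferon-linked or antiviral members, all 4 chromatin co-regulators, all 7 neuronal members and their NHL-domain relatives, 2 of 3 muscle members, 1 of 2 red cell members and 21 of 24 others.

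Promoter sequence is shown for the members on which the results below turn. The windows were taken from RefSeq (build GRCm38.p6), which held a window from 250 bases before to 50 bases after the start site for 42 of the 56 members, and Trim14 was not among them. They were searched for GAAANNGAAA on both strands (TTTCNNTTTC on the other), a spacing typical of the sites bound by interferon regulatory factors. Matches are in capitals, each with up to 30 bases on either side, and all sequences read 5′ to 3′ along the gene's strand. A match is a description, not a bound site. Trim26 is shown as an interferon-linked member with a match that was not called, and Trim25 as the member followed through every library.
Trim21 (chr7:102565453-102565499, minus strand): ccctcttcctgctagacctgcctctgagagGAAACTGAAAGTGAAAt
Trim34a (chr7:104244437-104244486, plus strand): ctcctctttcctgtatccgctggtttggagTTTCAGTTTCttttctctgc
Trim12c (chr7:104353339-104353408, minus strand): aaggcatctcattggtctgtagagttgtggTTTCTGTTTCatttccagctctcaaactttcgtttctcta
Trim12a (chr7:104315466-104315515, minus strand): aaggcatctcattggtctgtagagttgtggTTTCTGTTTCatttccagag
Trim5 (chr7:104288116-104288185, minus strand): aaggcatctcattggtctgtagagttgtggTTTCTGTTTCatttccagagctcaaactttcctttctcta
Trim30a (chr7:104465190-104465259, minus strand): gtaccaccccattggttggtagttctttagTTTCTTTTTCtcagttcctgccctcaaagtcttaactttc
Trim30d (chr7:104507851-104507920, minus strand): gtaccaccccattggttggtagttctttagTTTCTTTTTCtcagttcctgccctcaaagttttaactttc
Trim26 (chr17:36836956-36837031, plus strand): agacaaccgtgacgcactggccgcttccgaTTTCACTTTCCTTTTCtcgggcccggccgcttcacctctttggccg
Trim25 (chr11:88999153-88999432, plus strand, no match in the window): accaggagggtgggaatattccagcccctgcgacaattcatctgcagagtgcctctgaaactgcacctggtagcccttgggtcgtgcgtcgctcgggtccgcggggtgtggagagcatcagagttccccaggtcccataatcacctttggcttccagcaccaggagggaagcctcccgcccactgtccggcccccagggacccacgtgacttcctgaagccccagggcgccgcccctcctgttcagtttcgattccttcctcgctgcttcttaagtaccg

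The matches in Trim21 overlap each other, as do those in Trim26. Of all genes with a RefSeq window, 3.99% had a match in any window (1079 of 27025). The motif stood in 7 of the 12 members with a window called higher in Kir averaged over ages, namely Trim5, Trim12a, Trim12c, Trim21, Trim30a, Trim30d and Trim34a, and in 2 of 25 other tested members, Trim2 and Trim26. These 7 are not independent, because gene copies share sequence: the windows of Trim12a and Trim5 share a run of 241 bases and those of Trim30a and Trim30d a run of 118 bases. Trim6, Trim25, Trim34b, Trim56 and Trim68 were higher in Kir and had no match in this window. Trim21 lies apart from the others on chromosome 7, while 10 members (Trim5, Trim6, Trim12a, Trim12c, Trim30a to Trim30d, Trim34a and Trim34b) lie within chr7:104218793-104507849 (GENCODE M21 on GRCm38). All 8 of them that could be tested were called higher in Kir averaged over ages, beside 3.03% of all genes. They are neighbours, and a strain difference at this locus cannot be told apart from the transgene.

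Averaged over the 7 ages, 16 of the 49 tested members differed between Kir and WT (edgeR quasi-likelihood test, adjusted p below 0.05 over 19927 genes), beside 10.4% of all genes tested. Of these, 13 were higher in Kir, beside 3.03% of all genes, and 3 were lower, beside 7.38%. The higher ones were mostly antiviral members: 11 of 14 interferon-linked members rose, none fell, and their median log2 difference was 0.89, beside 0.01 for all genes tested. The largest difference was in Trim30a, an interferon-induced mouse gene known as a brake on Toll-like receptor signalling, with a log2 fold change of 2.72 ± 0.20 (SE; edgeR adjusted p = 5.81e-12). Trim25 rose by 0.84 ± 0.07 (adjusted p = 3.11e-11) and Trim21, the cytosolic antibody receptor that sends antibody-coated virus to the proteasome, by 0.90 ± 0.10 (adjusted p = 3.38e-08). Trim14, an adaptor of the antiviral complex at mitochondria, rose by 0.88 ± 0.105 (adjusted p = 6.54e-08).

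Trim34b rose by 1.46 ± 0.16, Trim34a by 1.28 ± 0.14, Trim12a by 0.95 ± 0.13 and Trim12c by 0.84 ± 0.09. Trim30d rose by 1.68 ± 0.25. Trim5 rose by 1.13 ± 0.19. Together with Trim12a and Trim12c it is a mouse relative of the primate restriction factor TRIM5, which blocks incoming retroviral capsids. In the grouping by role, Trim12a and Trim12c were placed with the interferon-linked members, but Trim5 with the others. Trim6, which in human cells builds free ubiquitin chains during interferon signalling, rose by 1.22 ± 0.29 (edgeR adjusted p = 0.00365), but no library exceeded 0.888 CPM, and limma on log2(TPM + 0.1) gave 0.29 and no call. Trim56, an antiviral ligase, rose by 0.22 ± 0.05 (adjusted p = 0.00395). Trim68, like Trim5 not among the interferon-linked members, rose by 0.21 ± 0.07 (edgeR adjusted p = 0.0297). The Trim68 call was lost without WT P3 replicate 1 (edgeR adjusted p = 0.0562) or WT P21 replicate 3 (adjusted p = 0.0535).

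Interferon-linked members that did not pass were Trim26 at a log2 fold change of 0.09, Trim13 at 0.00 and Trim65 at −0.09. Reads of near-identical copies in the chromosome 7 cluster were counted only where they mapped to 1 place, so the split between Trim30a to Trim30d, between Trim5, Trim12a and Trim12c and between Trim34a and Trim34b is uncertain. The deposited TPM values come from RSEM, which shares such reads among copies, and there the mean log2(TPM + 0.1) differences were 2.29 for Trim30a, 1.41 for Trim30d, 0.83 for Trim12a, 0.77 for Trim12c, 1.19 for Trim34a, 1.47 for Trim34b and 0.73 for Trim5. Trim14 and Trim34a also overlap exons of genes on the opposite strand (Nans and Gm47248 among them), as do Trim7 and Trim9. In all, 10 of the 56 members have such an overlap. Another 7 cases are overlaps with exons of a gene on the same strand, with Trim5, Trim12c, Trim16, Trim47 and Trim67 among them. The sources used here do not give the strand setting of the counting. Reads of these members thus cannot be told apart from those of the overlapping genes. By edgeR 0 of 4 chromatin, 0 of 2 muscle and 0 of 1 red cell members were called averaged over ages, which with 10.4% of all genes called says little about such small groups.

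**Figure D2:**
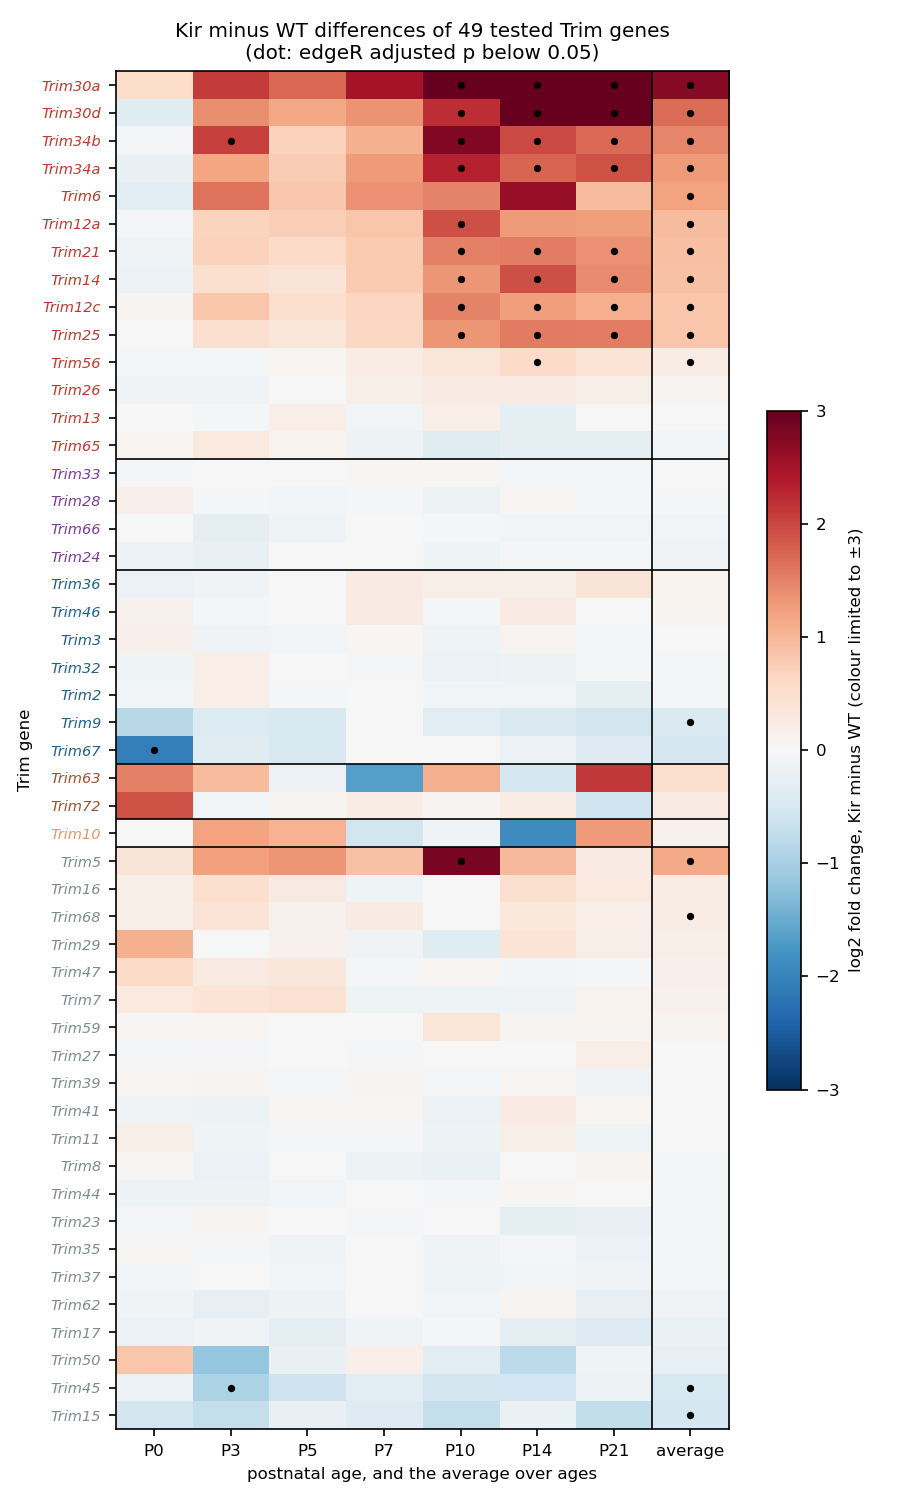
Log2 fold change, Kir minus WT, of the 49 tested members (rows, grouped and coloured by role as in the plot of TPM levels) at each age and averaged over ages (columns), with colour limited to ±3 and a dot where the edgeR adjusted p was below 0.05. Dots fill the upper rows from P10 on (10 at P10, 9 at P14 and 8 at P21), against 1 at P0, 2 at P3 and 0 at P5 and P7.

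Most calls at single ages fell at P10, P14 and P21, while the interferon-linked members were already higher in Kir by size from P3. Their median log2 difference was −0.05 at P0, 0.67 at P3, 0.53 at P5, 0.78 at P7, 1.48 at P10, 1.55 at P14 and 1.30 at P21, beside −0.04 to 0.03 for all genes tested. At P0 no interferon-linked member was called, nor had one an unadjusted edgeR p below 0.05, and 1 member in all was called, Trim67, lower in Kir, beside 0.984% of all genes called and 0.637% called lower. At P3, 2 members were called, Trim34b higher and Trim45 lower, beside 0.713% of all genes (0.161% higher and 0.552% lower). By edgeR none was called at P5, beside 0.115% of all genes (0.0201% higher and 0.0953% lower), or at P7, beside 0.0753% (0.0552% higher and 0.0201% lower), though 7 members had an unadjusted p below 0.05 at P5 and 10 at P7. An unadjusted p below 0.05 was also reached by 13 members at P3, of which 7 were interferon-linked, beside 14 at P10 and 13 each at P14 and P21. DESeq2 called 3 members at P7 and 0 at P5. The share of all genes is not given for the unadjusted limit or for DESeq2, so these counts cannot be read against it. At P10 there were 10 members higher in Kir and none lower, beside 2.82% of all genes higher and 3.11% in either direction. They were Trim5, Trim12a, Trim12c, Trim14, Trim21, Trim25, Trim30a, Trim30d, Trim34a and Trim34b. At P14 there were 9 higher, beside 0.768% higher and 0.412% lower, and at P21 8 higher, beside 0.652% higher and 0.758% in either direction. None was lower at P14 or P21. Trim12c, Trim14, Trim21, Trim25, Trim30a, Trim30d and Trim34a were called at each of P10, P14 and P21, and Trim34b at these and at P3. Trim30d lost its P10 call without Kir P10 replicate 2 (edgeR adjusted p = 0.065), WT P10 replicate 1 (adjusted p = 0.19) or WT P10 replicate 2 (adjusted p = 0.167). The P21 count rests on few libraries: without Kir P21 replicate 3 it was 2, without WT P21 replicate 3 it was 3, without WT P21 replicate 1 or 2 it was 4, and with the replicate number as a block it was 5. The P14 count was 5 without WT P14 replicate 3.

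Ranges of single libraries, which need no model, separated members at P3 and P5 as well as at the later ages. At P10 the Kir and WT libraries did not overlap in CPM for 16 of 49 members, 13 higher in Kir, beside 3.04% of all genes, and 3 lower, beside 4.5%. At P14 it was 13 higher, beside 5.77%, and 3 lower, beside 8.23%, and at P21 12 higher, beside 8.29%, and 5 lower, beside 10.6%. The count was 11 higher and 5 lower at P3, beside 10.1% and 10.6%, and 9 higher and 2 lower at P5, beside 7.34% and 8.84%. At P0 it was 1 higher, beside 0.938%, and none lower, beside 1.04%, and at P7 none in either direction, beside 0.316% higher and 1.33% lower.

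Trim25 (ENSMUSG00000000275, chr11:88999376-89020293, plus strand) was followed in every library. At P0 it had 120, 80.3, 94.0 and 112 CPM in Kir and 103, 93.7, 96.6 and 115 CPM in WT. At P3 it had 99.6, 94.0 and 80.5 CPM in Kir and 61.0, 68.5 and 66.8 CPM in WT. At P5 it had 81.8, 101 and 112 CPM in Kir and 67.1, 74.5 and 88.3 CPM in WT. The genotypes overlapped fully at P0, stood apart at P3, with each Kir library above each WT library, and overlapped again at P5.

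The gap was wider from P10. At that age Trim25 had 154, 169, 191 and 171 CPM in Kir, against 68.4, 64.8 and 71.5 CPM in WT. Kir libraries at P14 held 139, 153 and 138 CPM and WT libraries 47.2, 52.3 and 45.8 CPM. Kir libraries at P21 held 109, 120 and 166 CPM and WT libraries 48.96, 40.9 and 47.2 CPM. No Kir library overlapped a WT library at any of these ages. In edgeR the log2 fold change was 1.33 ± 0.18 at P10 (adjusted p = 1.37e-05), 1.57 ± 0.20 at P14 (adjusted p = 5.92e-06) and 1.53 ± 0.20 at P21 (adjusted p = 5.84e-06). Exact two-sided permutation tests of the CPM gave p = 0.0286 at P10 (n = 4 Kir and 3 WT, and the smallest this design allows), 0.1 at P3, P14 and P21 (the smallest 3 against 3 can give), 0.2 at P5, 0.4 at P7 and 1 at P0. Adjusted over the 7 ages, the smallest of these p-values was 0.175, since the group sizes limit them.

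**Figure D3:**
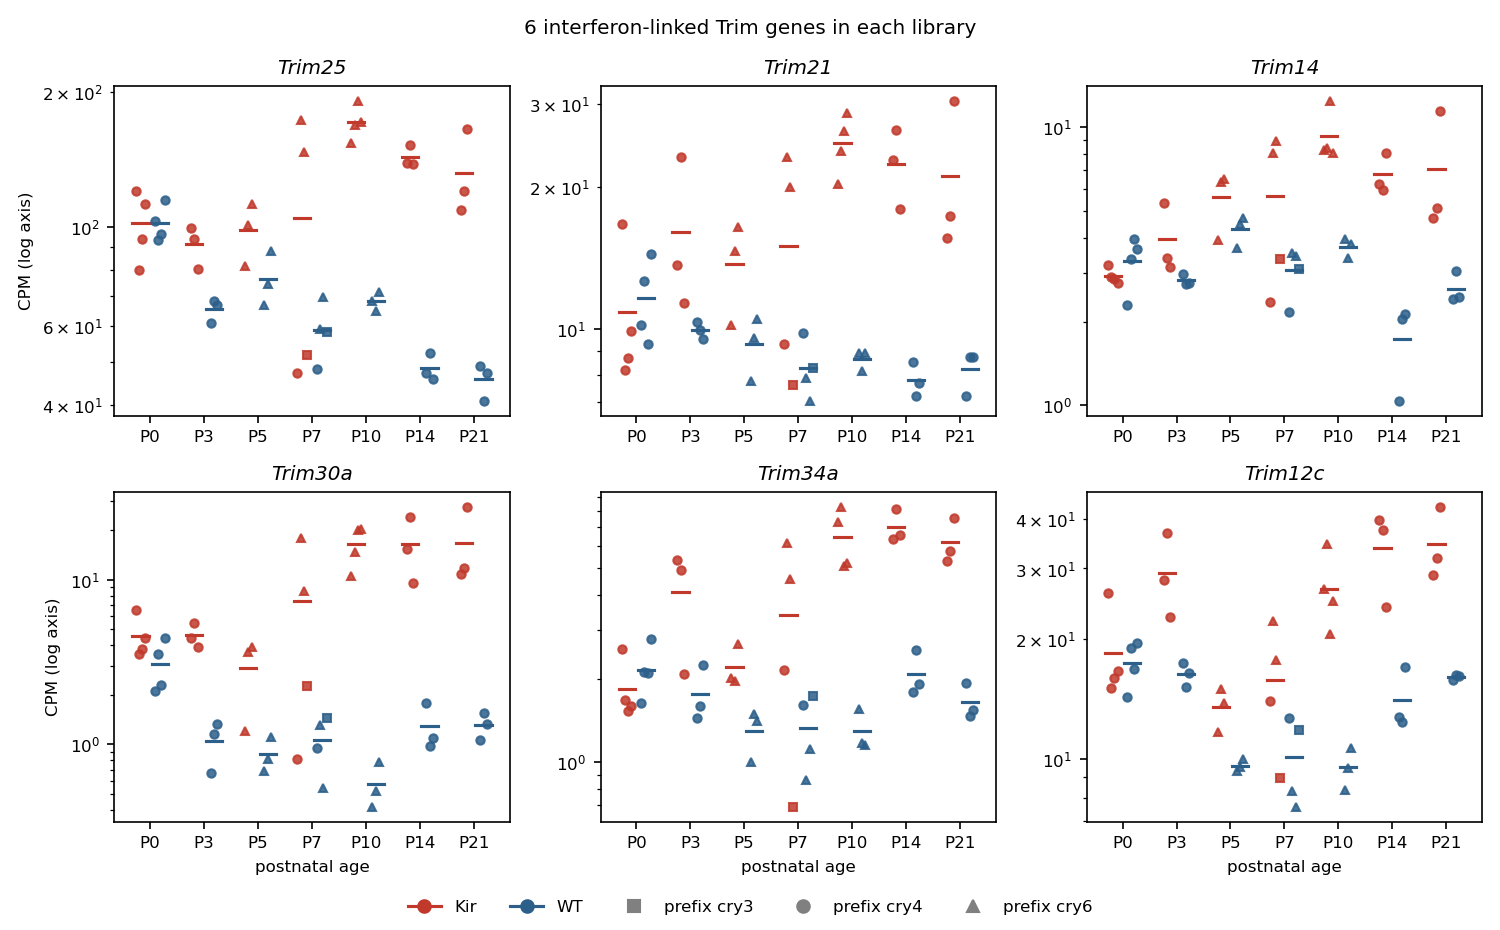
CPM (log axis) of 6 interferon-linked members in each library by postnatal age, with Kir (red) left of WT (blue), symbols for the title prefix and horizontal bars for group means. Trim25 separates the genotypes at P10, P14 and P21 (109 to 191 CPM in Kir, 40.9 to 71.5 CPM in WT), while at P7 the Kir libraries split into a high and a low pair.

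Trim30a showed the same order on a lower level. At P0 it had 6.58, 3.53, 3.80 and 4.43 CPM in Kir and 2.12, 3.52, 2.30 and 4.43 CPM in WT. At P10 it had 10.6, 14.7, 20.1 and 20.3 CPM in Kir and 0.416, 0.518 and 0.781 CPM in WT. At P21 it had 10.9, 11.8 and 27.7 CPM in Kir and 1.06, 1.56 and 1.33 CPM in WT. Its genotypes overlapped at P0 and at P7, and at each other age every Kir library stood above every WT library. The edgeR log2 fold change was 4.84 ± 0.56 at P10 (adjusted p = 2.8e-06) and 3.66 ± 0.56 at P21 (adjusted p = 0.000123).

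Trim21 at P10 had 20.3, 23.9, 26.4 and 28.8 CPM in Kir and 8.91, 8.14 and 8.89 CPM in WT. Trim14 at that age had 8.27, 8.38, 12.4 and 8.09 CPM in Kir and 3.95, 3.38 and 3.79 CPM in WT. Both were apart by genotype at P10, P14 and P21. At P0 Trim21 overlapped, with 16.7, 8.18, 8.70 and 9.92 CPM in Kir and 10.2, 12.7, 9.29 and 14.4 CPM in WT. Within the cluster, Trim34a at P10 had 7.34, 8.27, 5.10 and 5.20 CPM in Kir and 1.56, 1.17 and 1.15 CPM in WT. Trim12c at P10 had 26.7, 34.5, 20.6 and 24.8 CPM in Kir and 8.39, 9.52 and 10.7 CPM in WT. Every one of these 4 members was higher in each Kir library than in each WT library at P10.

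In edgeR the hypothesis of an equal Kir minus WT difference at all 7 ages was rejected for 3 members, beside 0.256% of all genes: Trim25 (adjusted p = 0.000808), Trim30a (adjusted p = 0.0121) and Trim14 (adjusted p = 0.0364). For each of them the log2 difference was lowest at P0, at −0.00 for Trim25, 0.56 for Trim30a and −0.18 for Trim14. The count was 0 with no prefix term in the fit, 1 with the replicate block and 8 without the 5 Kir libraries of low Kcnj2, and it was 2 to 5 as each library was left out in turn. Trim14 lost its call in 13 of these 47 refits. All libraries at P5 and P10 had prefix cry6, and all at P0, P3, P14 and P21 had cry4. Between these sets of ages, a change of the difference with age cannot be told apart from a change with prefix. The prefix term is the same for both genotypes and does not remove this.

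At P7 the Kir libraries did not behave as a single group. Trim25 had 173 and 147 CPM in the Kir libraries with prefix cry6, 47.1 CPM in that with cry4 and 51.9 CPM in that with cry3. WT libraries at P7 had 59.2 and 69.9 CPM with cry6, 48.3 CPM with cry4 and 58.1 CPM with cry3. Within cry6 the Kir minus WT difference in Trim25 was thus 95.6 CPM, and it was −1.12 CPM within cry4 and −6.24 CPM within cry3 (1 library a genotype in each of these, so no test). Trim30a had 17.99 and 8.61 CPM in the Kir cry6 libraries, 0.818 CPM in the cry4 and 2.27 CPM in the cry3 library, beside 0.539 to 1.46 CPM in WT. Kcnj2 itself averaged 1021 CPM in the Kir cry6 libraries and was 146 CPM in the Kir cry4 and 173 CPM in the Kir cry3 library. The other Kir libraries with low Kcnj2 were the lowest Kir libraries of their ages for Trim25 and above the WT libraries of those ages. At P21 replicates 1 and 2 had 109 and 120 CPM of Trim25, beside 166 CPM in replicate 3, and 10.9 and 11.8 CPM of Trim30a, beside 27.7 CPM. At P3 replicate 3 had 80.5 CPM of Trim25, beside 99.6 and 94.0 CPM in the other Kir libraries. Prefix and Kcnj2 level cannot be told apart within Kir at P7, and the part of the Kcnj2 level in these differences was not tested. The cry6 libraries alone at P7 were an alternative chosen after seeing the data. With these, 7 members were called there, all higher in Kir, and the count averaged over ages remained 16 with the same 16 members. That fit held 2 libraries a genotype at P7. The share of all genes called in it is not given, so the count of 7 cannot be read against other genes.

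**Figure D4:**
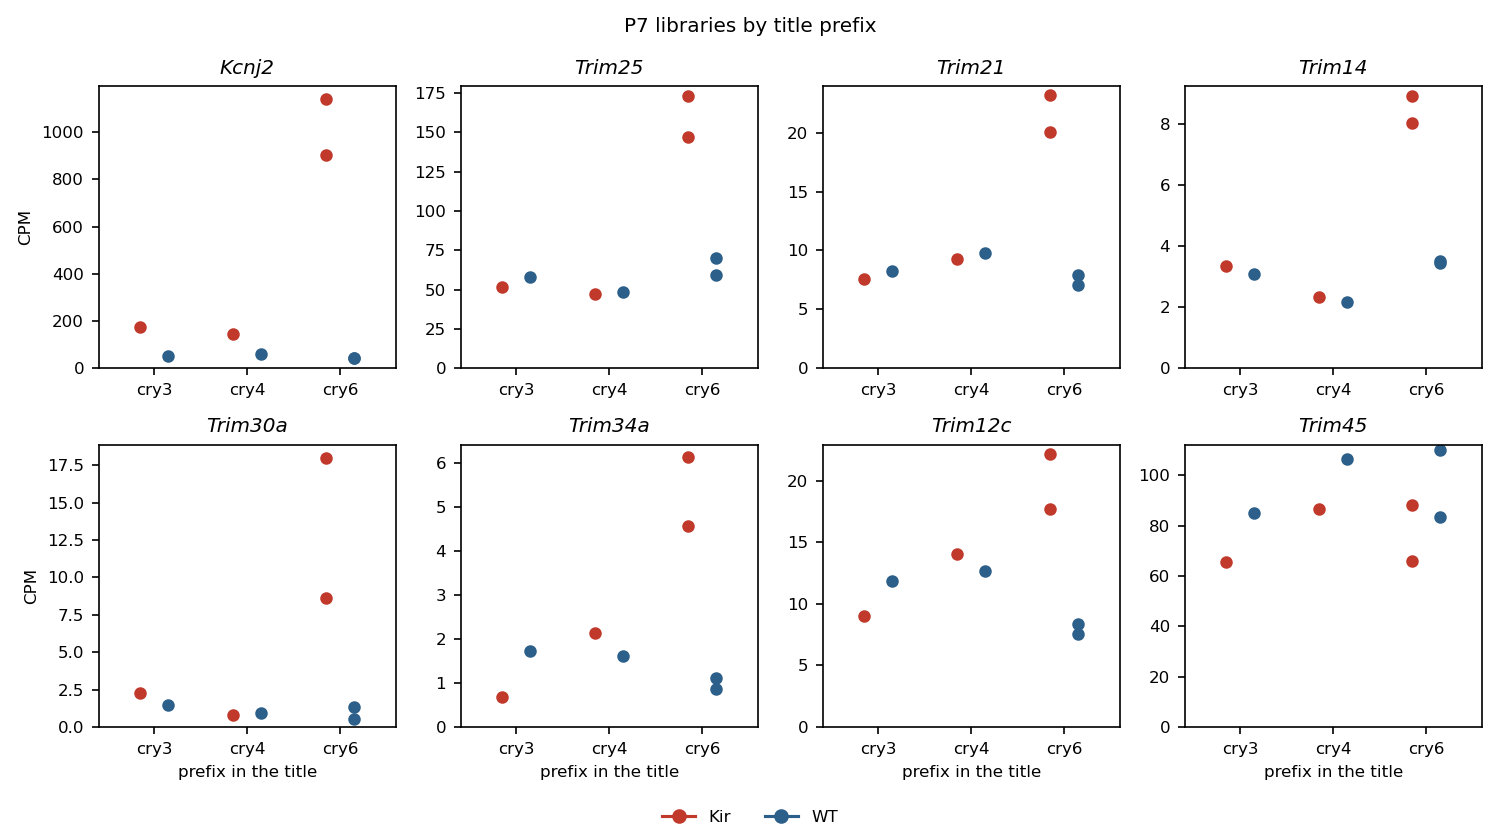
CPM of Kcnj2, 6 interferon-linked members and Trim45 in the P7 libraries by title prefix, with Kir (red) left of WT (blue) and 1 point a library. In the Kir cry6 libraries Trim25 stood at 147 and 173 CPM, and in the Kir cry3 and cry4 libraries at 51.9 and 47.1 CPM, in the range of WT or just below it.

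Genes that work with these members were taken from lists by function, and the values are log2 differences of Kir minus WT averaged over ages. The lists were chosen with earlier results of these data known. Around Trim25, 9 of 12 genes of RNA sensing and Isg15 conjugation rose and none fell, with a median of 1.07. Of all genes tested 3.03% were called higher and 7.38% lower, with a median of 0.01. Ddx58, which encodes RIG-I, rose by 0.69 ± 0.07 (edgeR adjusted p = 6.02e-09), and Zc3hav1, the antiviral zinc finger protein for which Trim25 is a cofactor, by 0.43 ± 0.05 (adjusted p = 7.61e-08). Isg15, the ubiquitin-like protein that human TRIM25 can attach, rose by 2.99 ± 0.27 (adjusted p = 5.98e-10). Mavs (−0.02), Rnf135 (0.13), another ligase acting on RIG-I, and Usp15 (0.01), which removes ubiquitin from Trim25, did not pass. Among interferon signalling genes, Irf7 rose by 3.38 ± 0.27, Irf9 by 1.33 ± 0.10, Stat2 by 1.03 ± 0.10 and Irf1 by 0.49 ± 0.07. The receptor chains Ifnar1 and Ifnar2, the kinases Jak1 and Tyk2, and Irf3 did not pass, at −0.04 to 0.12.

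None of the 10 genes for the general ubiquitin machinery (Uba1 and ubiquitin-conjugating enzymes) passed, at −0.06 to 0.08. Pml, a family member under another name, rose by 0.43 ± 0.08 (edgeR adjusted p = 0.000112), and Mid1 and Mid2 did not pass. Of the partners of Trim21, Fcgr1, an antibody receptor of macrophages, rose by 0.86 ± 0.11, while Vcp and Fcgrt did not pass. Over the 14 group means of log2 CPM, the genes outside the family most like Trim25 were Lgals9 (Pearson r = 0.962), Irf9 (0.960), Oasl1 (0.960), Rtp4 (0.959) and Xaf1 (0.946). Within the family Trim21 (0.920), Trim30a (0.870) and Trim14 (0.863) came closest. These correlations share the same libraries and are descriptive.

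Some cell type markers differed with genotype as well. Averaged over ages, 3.03% of all genes were called higher in Kir and 7.38% lower. No tested marker was called in the lists for immature sensory neurons, globose basal cells, cycling cells, horizontal basal cells or sustentacular cells. The same held for respiratory ciliated cells, skeletal muscle, red cells and brain neurons. All 6 macrophage markers (Csf1r, Adgre1, C1qa, C1qb, C1qc and Cd68) were higher in Kir averaged over ages, with a median log2 difference of 0.46. Their sum was 114 to 155 CPM in Kir and 79.9 to 119 CPM in WT at P10, and 98.7 to 128 CPM in Kir and 63.3 to 93.5 CPM in WT at P21, with none at 0. In the Kir cry3 library at P7, which had Trim25 at 51.9 CPM, the macrophage sum was 155 CPM, the highest of the P7 libraries. Of the lymphocyte markers 4 of 6 could be tested and 2 were higher, with sums of 3.25 to 6.82 CPM in Kir and 2.19 to 4.96 CPM in WT over the groups. Markers of mature sensory neurons were lower in 7 of 7, with a median of −0.43. In bulk RNA fewer cells of a type and less RNA per cell cannot be told apart, and the part of these cell types in the Trim differences was not tested.

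Averaged over ages, 3 of 49 members fell in Kir, a share near the 7.38% of all genes called lower. Trim45, reported in human cells to restrain mitogen-activated kinase signalling, fell by 0.48 ± 0.07 on the log2 scale (edgeR adjusted p = 1.26e-06). At P3 it had 46.0, 37.4 and 45.3 CPM in Kir and 87.4, 78.1 and 84.2 CPM in WT. At P14 it had 94.7, 87.1 and 102 CPM in Kir and 143, 142 and 134 CPM in WT. At P21 it had 144, 143 and 134 CPM in Kir and 168, 156 and 147 CPM in WT. The genotypes were apart at P3, P5, P10, P14 and P21, with Kir below WT each time, and overlapped at P0 and P7.

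Trim15 fell by 0.50 ± 0.12 (edgeR adjusted p = 0.00319), and its log2 difference was below 0 at all 7 ages. At P0 it had 1.10, 1.11, 1.24 and 1.59 CPM in Kir and 1.71, 2.02, 1.57 and 2.09 CPM in WT, which overlapped by 1 library. Without the 5 Kir libraries of low Kcnj2 its fold change was −0.36 and it was not called. Trim9, a brain-rich ligase that shapes axon branching downstream of netrin, fell by 0.43 ± 0.13 (adjusted p = 0.0264). At P21 it had 13.6, 13.2 and 17.9 CPM in Kir and 26.4, 18.9 and 20.8 CPM in WT, with no overlap.

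A single library weighs on Trim9 and on its close relative Trim67. WT P0 replicate 1 had 48.2 CPM of Trim9, beside 6.89 to 11.1 CPM in the other WT P0 libraries, and 54.7 CPM of Trim67, beside 3.17 to 5.22 CPM. In that library the 6 brain neuron markers, of which 5 could be tested, summed to 417 CPM, beside 35.3 to 44.6 CPM in the other WT P0 libraries and 34.4 to 50.9 CPM in the Kir P0 libraries. With it, Trim67 had a log2 fold change of −2.05 ± 0.51 at P0 (edgeR adjusted p = 0.0394), and without it no member was called at P0. Without it Trim9 averaged over ages was at −0.28 and was still called. The Trim9 call was lost without Kir P21 replicate 2 (edgeR adjusted p = 0.0501), WT P10 replicate 2 (adjusted p = 0.055) or WT P21 replicate 1 (adjusted p = 0.0547). It was also lost without the 5 Kir libraries of low Kcnj2 (adjusted p = 0.121), with no filter on low counts (adjusted p = 0.0896) and without Kir P10 replicates 1 and 2, which had the largest unmapped shares of their group (adjusted p = 0.0517).

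Between P21 and P0 the members differed about as often as other genes. In Kir 28 of 49 members differed between P21 and P0 (15 higher and 13 lower at P21), beside 48.7% of all genes (22.9% higher and 25.8% lower). In WT 23 of 49 did (9 higher and 14 lower at P21), beside 50.6% (23.9% higher and 26.7% lower). Of the 15 higher in Kir and the 9 higher in WT, 6 were shared, and of the 13 lower in Kir and the 14 lower in WT, 11 were shared. Among the interferon-linked members 8 of 14 were higher and none lower at P21 in Kir, while in WT 1 was higher (Trim56) and 2 were lower (Trim25 and Trim30d). The count over WT libraries of P0, P3, P14 and P21, all of prefix cry4, was also 23 of 49 for any difference among these ages, beside 53.4%.

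Trim25 was lower in WT at P21 than at P0, by a log2 fold change of −1.16 ± 0.19 (edgeR adjusted p = 3.35e-06). In Kir its P21 minus P0 fold change was 0.37 ± 0.18 and did not pass (edgeR adjusted p = 0.0823). Trim30d in WT had a P21 minus P0 log2 fold change of −3.32 ± 0.72 (edgeR adjusted p = 0.000247), at 0.193, 0.275 and 0.350 CPM at P21 and 1.88, 2.73, 3.45 and 3.39 CPM at P0. In Kir it was 1.18, 1.53 and 4.37 CPM at P21 and 2.74, 0.837, 1.97 and 3.28 CPM at P0, groups that overlap.

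Outside the interferon-linked group, Trim45 had the largest called rise with age in WT, with a P21 minus P0 log2 fold change of 1.88 ± 0.17 (edgeR adjusted p = 3.97e-11), and it was 1.89 ± 0.17 in Kir (adjusted p = 3.88e-11). In WT it had 168, 156 and 147 CPM at P21 and 29.3, 52.0, 39.9 and 48.9 CPM at P0. Trim66 was higher at P21 by 0.78 ± 0.17 in Kir (adjusted p = 0.000186) and 0.85 ± 0.17 in WT (adjusted p = 5.8e-05), and Trim28 was lower at P21, with a log2 fold change of −0.64 ± 0.11 in Kir (adjusted p = 1.88e-05) and −0.43 ± 0.11 in WT (adjusted p = 0.00185). In both genotypes 7 of 7 markers of mature sensory neurons and 4 of 4 of sustentacular cells were called higher at P21. Likewise, 4 of 4 markers of cycling cells and 4 of 4 of globose basal cells were called lower. Of all genes 23.9% were higher and 26.7% lower in WT, and 22.9% higher and 25.8% lower in Kir. The part of these cell types in the age differences of the members was not tested.

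Members lower at P21 by at least 1 on the log2 scale in WT were Trim63 (−3.94 ± 1.29), Trim30d, Trim67 (−2.25 ± 0.57), Trim7 (−2.08 ± 0.35), Trim16 (−1.79 ± 0.24), Trim29 (−1.32 ± 0.51), Trim25 and Trim47 (−1.14 ± 0.27). Higher by as much beside Trim45 were Trim50 (1.73 ± 0.56) and Trim5 (1.46 ± 0.48). Trim7, which binds the glycogen primer glycogenin, had 2.51, 3.49 and 1.89 CPM at P21 and 7.67, 7.92, 14.2 and 14.4 CPM at P0 in WT. Trim16 had 3.08, 3.40 and 3.92 CPM at P21 and 10.2, 10.3, 13.3 and 14.6 CPM at P0 in WT. Every P21 library lay below every P0 library for both. The Trim67 value rests on WT P0 replicate 1, without which it was −0.22 and not called. The Trim63 value was −6.21 without WT P21 replicate 2 and lost its call without WT P21 replicate 3 (edgeR adjusted p = 0.0573). Trim50 lost its call without WT P21 replicate 3 (adjusted p = 0.058), Trim5 without WT P21 replicate 1 (adjusted p = 0.0746) and Trim29 without any 1 of the WT P21 libraries (adjusted p = 0.0604 to 0.106). The value of Trim29 was −0.83 and not called without WT P0 replicate 3, which had 46.4 CPM of it beside 13.1 to 22.2 CPM in the other WT P0 libraries and a keratinocyte marker sum of 687 CPM beside 221 to 284 CPM.

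**Figure D5:**
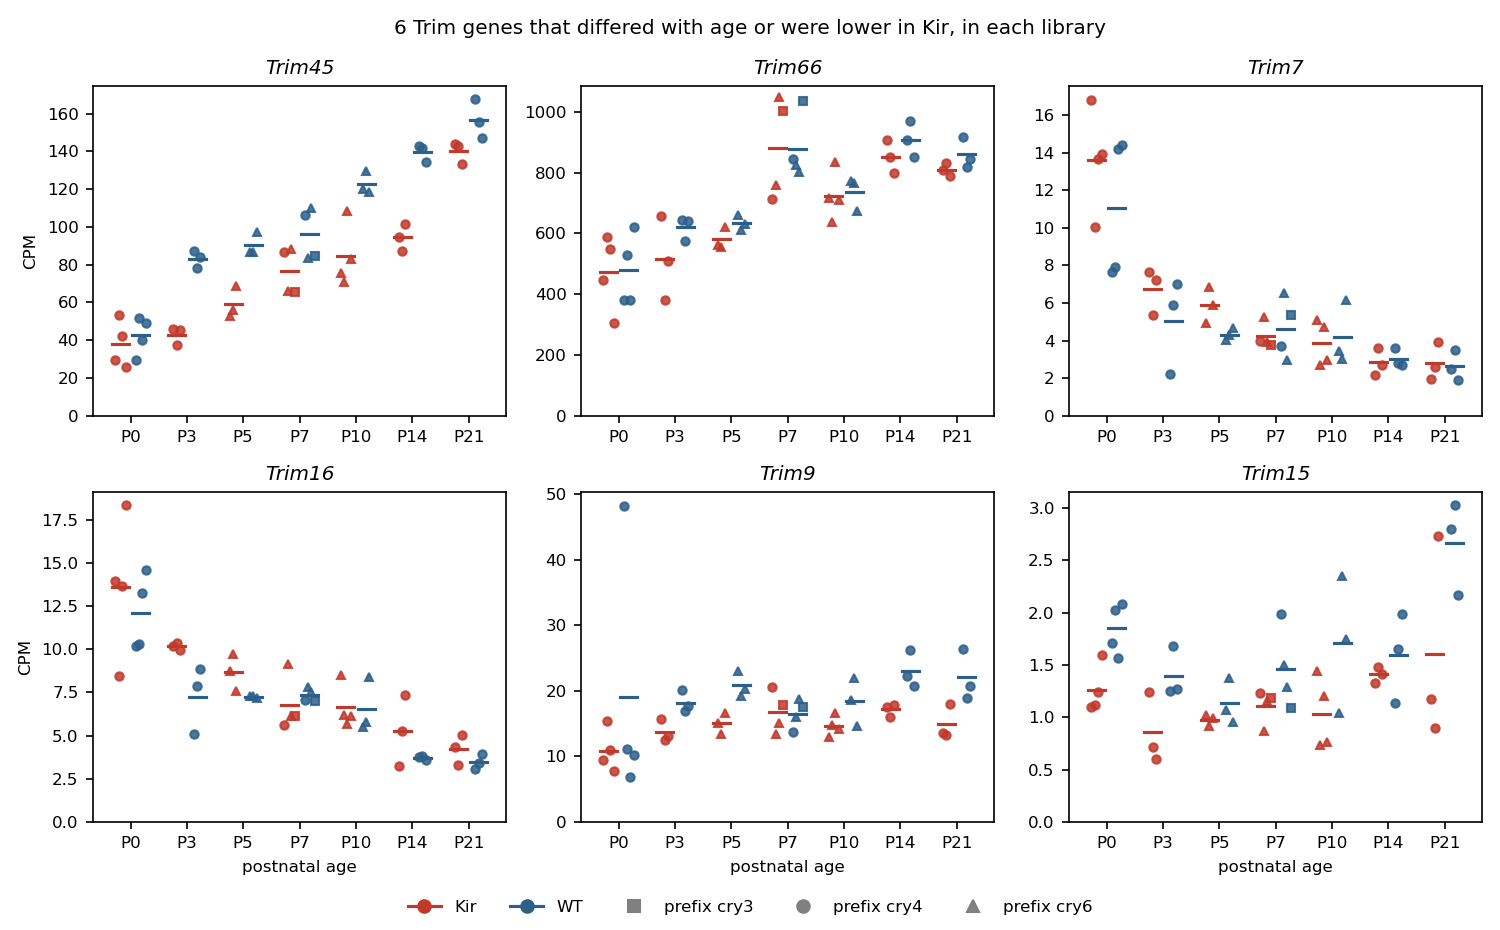
CPM of Trim45, Trim66, Trim7, Trim16, Trim9 and Trim15 in each library by postnatal age, with Kir (red) left of WT (blue), symbols for the title prefix and bars for group means, on axes from 0. Trim45 climbs with age in both genotypes, to 134 to 144 CPM in Kir and 147 to 168 CPM in WT at P21, and the WT library at 48.2 CPM stands out at P0 for Trim9.

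Muscle members were highest in a library rich in muscle markers. Trim63 and Trim72, which act in muscle protein breakdown and in membrane repair, had 4.16 and 11.0 CPM in Kir P0 replicate 4, whose skeletal muscle markers summed to 2212 CPM. In the other Kir P0 libraries Trim63 had 0.0913 to 1.30 CPM and Trim72 0.274 to 0.93 CPM, with muscle sums of 5.12 to 8.55 CPM. That library also had 154 CPM of Trim29, a gene of basal epithelial cells, beside 16.4 to 18.9 CPM in the other Kir P0 libraries, and its keratinocyte marker sum was 1732 CPM beside 184 to 306 CPM. Both muscle members were called lower at P21 in Kir (−3.35 ± 0.90 for Trim63 and −2.49 ± 0.72 for Trim72), and the Kir P21 minus P0 count of members was 22 without that library. Trim10, a red cell gene, was higher at P21 in Kir by 2.30 ± 0.77 (edgeR adjusted p = 0.0135), at 3.78, 1.44 and 0.182 CPM at P21, in libraries whose red cell markers summed to 558, 225 and 66.5 CPM in the same order. The part of these cell types in the fold changes was not tested.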

How the data were processed

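Polyadenylated RNA of olfactory epithelium was sequenced in 47 libraries. The authors deposited whole-number read counts per gene and RSEM values in TPM. Per the submitters' processing notes, STAR 2.6.1c, RSEM and build mm10 were used. The 56 members and all gene lists were chosen with earlier results of these data known.

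Deposited counts of 19927 genes left by a filter on low counts (filterByExpr) were tested with edgeR 4.0.16 in R 4.3.3, using TMM factors and the quasi-likelihood test. The fit held 14 group means and a term for the title prefix. Adjusted p-values are Benjamini-Hochberg over all 19927 genes, with calls below 0.05. CPM uses TMM library sizes. The deposited TPM values served to compare levels between genes and, as log2(TPM + 0.1) or log2(TPM + 1), in limma 3.58.1. DESeq2 1.42.0, other factors and filters, a replicate block and leaving out libraries were alternatives. Refits with a single library left out kept the full fit's trend of spread with gene level (trended dispersion). The library left out had thus helped to set that trend.

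Named members are Trim25, those called averaged over ages or in the change with age, those called between P21 and P0 in WT with an absolute log2 fold change of at least 1, the 5 of highest TPM and those nearest the limit. Others were added after their values were seen. Unmapped reads made up 1.31% to 33.5% and multimapping reads 5.17% to 20.6% of a library, and both stayed out of library sizes. Replicate pairs differed by 6.74 to 111 times the sampling variance, so none was counted as 1 sample. Same-numbered Kir and WT libraries shared deviations at P3, with correlations of 0.172, 0.21 and 0.286, and the block left the P3 count at 2. The bare number pairs them there, and the labels state no shared litter or day. A gene of the interferon signalling list is not reported here.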

Additional observations from a re-analysis of the deposited data

Results flagged for a closer look

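Of 115 groups of 4 libraries, over 23 named members, 10 held a library far from its others, and chance marks about 1 group in 20. In Kir P0 replicate 1, Trim12c was at 26.1 CPM beside 15.1 to 16.6 CPM, Trim34a at 2.56 CPM beside 1.54 to 1.67 CPM, and Trim56 at 78.1 CPM beside 46.5 to 51.9 CPM. In Kir P0 replicate 4, the library high in muscle and keratinocyte markers, Trim29 was at 153.8 CPM beside 16.4 to 18.9 CPM and Trim50 at 0.443 CPM beside 0.274 to 0.292 CPM. Trim14 was at 12.4 CPM in Kir P10 replicate 3 beside 8.09 to 8.38 CPM. In Kir P7 replicate 2, Trim16 was at 9.14 CPM beside 5.62 to 6.16 CPM and Trim7 at 5.24 CPM beside 3.75 to 3.99 CPM. In WT P0 replicate 1, the library high in brain neuron markers, Trim67 was at 54.7 CPM beside 3.17 to 5.22 CPM and Trim9 at 48.2 CPM beside 6.89 to 11.1 CPM. The Kir minus WT difference changed with age, by edgeR, for Trim25 (adjusted p = 0.000808), Trim30a (adjusted p = 0.0121) and Trim14 (adjusted p = 0.0364). Some of the ages compared also differed in title prefix.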

How the results depend on the processing

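The 16 calls averaged over ages gave 13 to 16 under the other settings, and 15 to 17 with each library left out. The shares of all genes called are not given for these settings, so none of the counts here can be read against them. At P0 the count of 1 was 0 by limma on either TPM scale, with no filter on low counts, with the replicate block and without the 5 Kir libraries of low Kcnj2. At P3 the count of 2 was 0 with WT P0 replicate 3 placed at P3, 1 by limma on either TPM scale and 5 without those 5 libraries. At P7 the count of 0 was 1 with DESeq2 size factors or a filter of 1 CPM in 10 libraries, 3 by the DESeq2 test, 2 with no prefix term, and 7 without those 5 libraries or with the cry6 libraries alone, the last chosen after seeing the data. At P21 the count of 8 was 5 with the replicate block. The count of 3 members whose difference changed with age was 7 by DESeq2, 0 with no prefix term, 1 with the replicate block and 8 without the 5 libraries. The Trim25 difference at P7, 46.0 CPM, was −1.12 CPM within cry4 and −6.24 CPM within cry3. With each library left out, counts ran from 0 to 2 at P0, 0 to 3 at P3, 0 at P5, 0 to 4 at P7, 9 to 11 at P10, 5 to 10 at P14 and 2 to 9 at P21. They ran from 2 to 5 for the change with age, 22 to 29 for Kir and 17 to 26 for WT between P21 and P0, and 20 to 27 among WT ages. Over the other settings 34 single-gene values lost their call. Those that were fold changes kept their direction, and the rest were tests of change with age, which have none. Among them, by limma on TPM, were Trim6, Trim68 and Trim9 averaged over ages, and Trim30d and Trim5 at P10. Averaged over ages, Trim68 also lost its call with no prefix term, and Trim15 without the 5 libraries. The causes were not tested. Over 13 same-numbered pairs the correlations ran from −0.192 to 0.304. Low counts limit Trim6, Trim5, Trim30d, Trim50 and Trim63.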
